A study of Mus musculus with 27 samples.

Results

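Ncor1, Hdac3, Tbl1xr1 and Gps2, 4 autosomal genes that encode subunits of the NCoR corepressor complex, were followed by RNA sequencing in mouse embryonic stem cells in which Xist was induced with or without the Xist-binding repressor SPEN. They were chosen by name as partners of the SPOC domain of SPEN and make up 4 of the 53801 genes in the count table. All 4 passed the filter on low counts, which 18363 genes passed. The cells were TX1072, a hybrid line with 1 BL/6J and 1 CAST-EiJ genome, and every group carried SPEN fused to an auxin-inducible degron (SPEN-AID), so that auxin depletes the protein. The GFP line (BglG-GFP) expressed GFP fused to BglG, a bacterial RNA-binding protein used to tether a partner to Xist RNA, and the SPOC line (BglG-GFP-SPOC) expressed the same fusion extended by the SPOC domain. Each line was left untreated, exposed to 1 ug/mL doxycycline for 24 h to switch on Xist (Dox), or kept in auxin for 12 h before 24 h of doxycycline and auxin together (Dox+Auxin). There were 4 libraries in each of the 3 GFP groups and 5 in each of the 3 SPOC groups, 27 in all. No group received auxin alone or doxycycline without inducible Xist, and each construct was in 1 line, so auxin and SPEN loss, doxycycline and Xist, and the SPOC domain and other traits of its line cannot be told apart.

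NCoR (Ncor1) is a large scaffold protein that transcription factors bring to DNA to repress nearby genes. It binds and activates HDAC3, a histone deacetylase that has little activity on its own, and it holds the WD40-repeat proteins TBL1X and TBLR1 (Tbl1xr1), which bind histone tails and take part in the exchange of corepressors, and GPS2, a small protein that joins the scaffold to TBL1X or TBLR1. The SPOC domain at the C-terminal end of SPEN binds the C-terminal tail of NCoR, and this contact is one route by which Xist RNA, through SPEN, is known to reach HDAC3 during silencing of the X chromosome.

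Promoter sequence from the RefSeq table (GRCm38.p6) is shown for Ncor1, Gps2 and Tbl1xr1. Hdac3 was not searched. The other 3 of the 4 members had 1 start each for Tbl1xr1 and Gps2 and 2 for Ncor1. The 250 bases before each RefSeq start were searched on both strands for 7 motifs. The RefSeq starts lie 132 bases (Gps2) and 1209 and 20026 bases (Ncor1) inside the outermost GENCODE start of the gene. For Gps2, 183 of the 250 bases are annotated as exon, of Gps2 or of another gene, Neurl4. For the upstream Ncor1 start, 147 bases are annotated as exon of Ncor1. The other Ncor1 start (window chr11:62438516-62438765, 36.8% G and C) held none of the motifs. These were an ETS core (CCGGAAG), an SP1 GC box (GGGCGG), the so-called CCAAT box (CCAAT), an NRF1 core (GCATGCG), a YY1 core (GATGGCG), a CREB site (TGACGTA) and an RBPJ site (GTGGGAA); the letters of these motifs do not lie within one another. The ETS core was found before the upstream RefSeq start of Ncor1 and that of Gps2 and is in capitals in the lines for these genes, each 27 bases on the strand of the gene; in the line for Tbl1xr1, 250 bases, the capitals mark the GC box, found on the opposite strand.
Ncor1, chr11:62457369-62457395, minus strand: ccccaaccctCCGGAAGgaggaggagc
Gps2, chr11:69913982-69914008, plus strand: cgtcgtgactCCGGAAGgatttatcct
Tbl1xr1, chr3:22076402-22076651, plus strand: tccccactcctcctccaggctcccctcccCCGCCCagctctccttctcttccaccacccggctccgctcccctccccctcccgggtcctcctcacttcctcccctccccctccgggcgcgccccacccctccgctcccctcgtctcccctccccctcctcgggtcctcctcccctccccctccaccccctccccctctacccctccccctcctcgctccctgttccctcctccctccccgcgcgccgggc
The ETS core began 53 bases before this RefSeq start of Ncor1 and 28 before that of Gps2, and 6.91% of 32851 RefSeq promoters of the same length hold it. A GC box was found for Ncor1 and Tbl1xr1 (32.7% of promoters), and a CCAAT box for Gps2 alone (33.8%). The Tbl1xr1 window was 76% G and C, a long run of C and T on the strand of the gene, against a median of 52.4% for all promoters. No match was found for NRF1, YY1, CREB or RBPJ (3.02%, 2.18%, 1.08% and 5.42% of promoters), which says only that these letters are absent from these windows.

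Libraries held between 28936459 and 45489094 counts, and the members were counted deeply, with 6544 to 12206 reads for Ncor1, 1691 to 2971 for Hdac3, 2618 to 4675 for Tbl1xr1 and 593 to 942 for Gps2. Xist was induced by doxycycline in both lines, but the library labelled SPOC untreated replicate 2 held 178 CPM of Xist (CPM, counts scaled to a fixed library size, with TMM factors between libraries) where the lowest of its group held 1.03, so differences from the SPOC untreated group are given also without it. Mean Xist was 840 CPM with Dox and 500 with Dox+Auxin in GFP cells, and 385 and 338 in SPOC cells. The level of Xist thus differed between treatments and lines, and its part in the results that follow was not tested. Spen RNA rose with Dox+Auxin, by 2.13 (log2; edgeR adjusted p = 4.43e-12) against Dox in GFP cells and by 1.58 (adjusted p = 3.01e-10) in SPOC cells; SPEN protein was not measured. With Dox, Spen was already higher in SPOC than in GFP cells, by 0.84 (edgeR adjusted p = 6.04e-05). Untreated libraries held 326 to 358 CPM of Spen in SPOC cells and 158 to 187 in GFP cells. Whether RNA of the fusion with the SPOC domain was counted as Spen in SPOC cells was not tested. The mean of Spen counts was 197 CPM with Dox and 860 with Dox+Auxin in GFP cells, and 353 and 1052 in SPOC cells. All 12 naive pluripotency markers were expressed in every group, with a summed level of 5666 to 6666 CPM, against 8.15 to 13.7 for 7 primitive endoderm and 23.4 to 36.8 for 7 fibroblast feeder markers. The summed naive markers were lowest in the GFP Dox+Auxin libraries (5666 to 5908 CPM, against 6283 to 6468 in GFP Dox). The 8 two-cell-like markers summed to 8.26 to 9.88 CPM in GFP Dox+Auxin and 26.7 to 38.4 in GFP Dox, and to 5.36 to 6.74 in SPOC Dox+Auxin and 14.4 to 25.2 in SPOC Dox. The 6 neural markers summed to 225 to 240 CPM in GFP Dox+Auxin against 152 to 175 in GFP Dox, and to 202 to 268 in SPOC Dox+Auxin against 138 to 176 in SPOC Dox. The 6 mesoderm markers summed to 31.4 to 36.7 CPM in GFP Dox+Auxin and 23.3 to 25.5 in GFP Dox, and the feeder markers to 25.0 to 27.4 and 34.2 to 36.8. In SPOC cells mesoderm markers overlapped between these treatments, and feeder markers summed to 23.4 to 29.9 CPM with Dox+Auxin against 30.1 to 35.6 with Dox. Single markers went both ways from Dox to Dox+Auxin (edgeR adjusted p below 0.05). In GFP cells, where 47.6% of tested genes passed, 2 naive markers rose and 7 fell. There 2 neural markers rose and 1 fell, and 2 mesoderm markers rose and 1 fell. In SPOC cells (32%) 2 neural markers rose and 1 fell. All 8 two-cell-like markers fell in both lines. Of the 6 neural markers 3 averaged under 1 CPM and the highest averaged 102. The sums moved with the Dox+Auxin results that follow, and their part in those results was not tested. In bulk RNA, fewer cells of one kind and less RNA per cell cannot be told apart.

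Per kilobase of exon, Ncor1 was the most abundant of the 4 members and Tbl1xr1 the least. Over the 27 libraries the mean level was 19.8 CPM per kb for Ncor1, 15.5 for Hdac3, 13.1 for Gps2 and 10.6 for Tbl1xr1. Tbl1x, the X-linked paralogue of Tbl1xr1, stood above them at 38.3 CPM per kb. The deposited columns headed RPKM gave the same order for the members, with means of 686, 539, 453 and 368. These columns are on the scale of counts per kilobase and not of usual RPKM: value times exon length in kb over count had a median of 0.755 to 1.2 per library, so only their order was used. Within groups, Ncor1 lay above Hdac3 in every library of 5 of the 6 groups; in GFP Dox+Auxin their levels were 16.9 ± 2.05 and 16.5 ± 0.435 CPM per kb (SD, n = 4) and the libraries overlapped. Hdac3 lay above Gps2 in every library of all 6 groups. Gps2 lay above Tbl1xr1 in every library of every group except GFP Dox, where the levels were 12.1 ± 0.655 and 11.8 ± 0.422 CPM per kb and the libraries overlapped. These lengths count every annotated exon, so a gene with rarely used exons appears lower per kilobase.

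**Figure D1:**
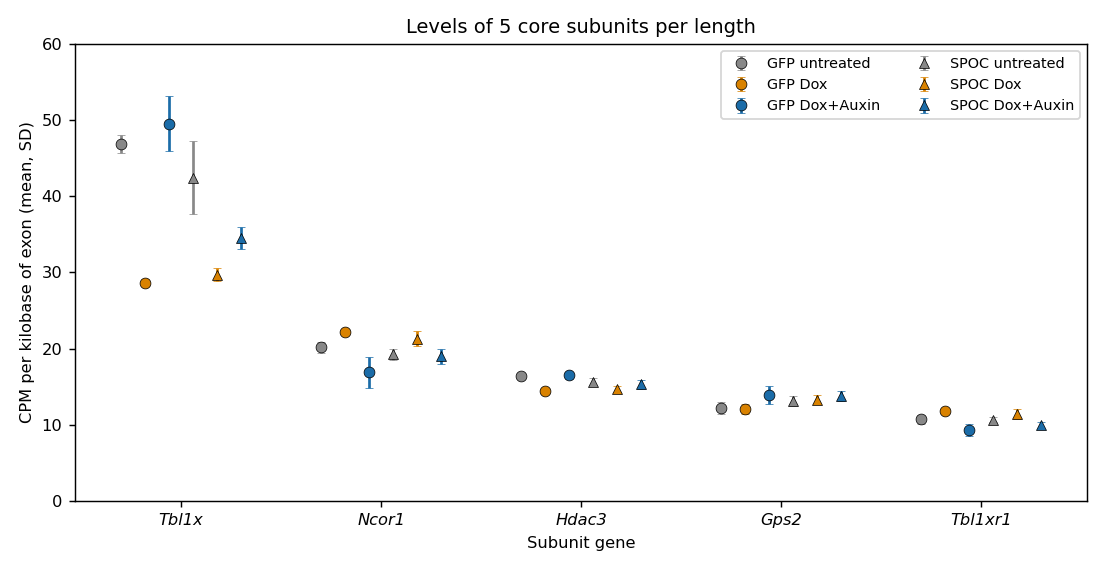
Mean level per kilobase of exon (CPM per kb, vertical axis; bars, SD; 4 libraries per GFP group and 5 per SPOC group) of the 4 members and Tbl1x in the 6 groups. Tbl1x stands above the others, at 28.6 to 49.5 CPM per kb, and falls in the Dox groups, while the 4 members keep between 9.25 and 22.2 CPM per kb.

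All changes of the 4 members were small. The ratio of the highest to the lowest library was 1.55 for Ncor1, 1.46 for Tbl1xr1, 1.31 for Gps2 and 1.21 for Hdac3, and no log2 fold change in any of the 12 comparisons exceeded 0.40 in size. By group mean, Ncor1 and Tbl1xr1 were highest with Dox and lowest with Dox+Auxin in both lines. For Ncor1 in SPOC cells, Dox+Auxin and untreated could not be told apart (-0.016, edgeR adjusted p = 0.837). Hdac3 had its lowest mean with Dox in both lines, called against untreated in GFP cells but not in SPOC cells. Gps2 had its highest mean with Dox+Auxin in both lines, with no call in SPOC cells. The clearest comparison was Dox+Auxin against Dox in GFP cells, where 2 members rose and 2 fell (edgeR, adjusted p below 0.05); 47.6% of all tested genes were called there, so calls of this kind were common.

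The scaffold Ncor1 (ENSMUSG00000018501; GRCm38 with GENCODE M21, chromosome 11, 62316426 to 62458541, minus strand) fell under Dox+Auxin in GFP cells. Its exons share 82 bases with Pigl and 1 base with Ttc19 on the opposite strand, 0.64% and 0.00781% of its exon bases; exons of the other members overlap no other gene. Its level was 255, 262, 246 and 269 CPM in the 4 GFP untreated libraries, 284, 290, 283 and 281 with Dox, and 213, 211, 188 and 251 with Dox+Auxin. All Dox libraries were above all untreated ones, all Dox+Auxin libraries were below all Dox ones, and replicate 4 of Dox+Auxin, at 251 CPM, was the only one of its group to reach the untreated range. Against Dox, Ncor1 fell by 0.40 with Dox+Auxin (log2; SE 0.056, adjusted p = 1.00e-06), a loss of 24.2%; without replicate 4 the fall was larger, 0.48 (adjusted p = 9.45e-10). Against untreated it fell by 0.26 (SE 0.056, adjusted p = 0.000508). The difference of Dox from untreated, 0.14 (SE 0.055, adjusted p = 0.0711), missed the threshold although the libraries did not overlap, and its 95% interval was 0.027 to 0.25.

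Ncor1 covered a smaller range in SPOC cells. It was at 256, 231, 247, 244 and 253 CPM untreated, 281, 260, 291, 262 and 271 with Dox, and 230, 235, 244, 263 and 245 with Dox+Auxin. Dox and untreated did not overlap, and Dox+Auxin lay within or near the untreated range, with its replicate 4, at 263 CPM, inside the Dox range. Ncor1 rose by 0.15 with Dox (SE 0.050, adjusted p = 0.0465), a call lost without SPOC untreated replicate 2 (0.13, adjusted p = 0.110) and in 19 of 33 alternatives. It fell by 0.16 from Dox to Dox+Auxin (SE 0.050, adjusted p = 0.0119). Dox+Auxin and untreated differed by -0.016 (SE 0.050, adjusted p = 0.837), with a 95% interval of -0.12 to 0.086 (-0.035 without untreated replicate 2, adjusted p = 0.668).

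The WD40-repeat subunit Tbl1xr1 (ENSMUSG00000027630; chromosome 3, 22076652 to 22216594, plus strand) had the same order of treatments. It was at 90.8, 102, 92.5 and 95.1 CPM in GFP untreated libraries, 103, 104, 103 and 111 with Dox, and 77.3, 89.8, 75.8 and 86.6 with Dox+Auxin. The 3 groups did not overlap. Tbl1xr1 rose by 0.14 with Dox (SE 0.050, adjusted p = 0.0370), a call lost when any of 6 of the 8 libraries compared was left out, with adjusted p up to 0.139. It fell by 0.35 from Dox to Dox+Auxin (SE 0.050, adjusted p = 8.53e-07), or by 21.6%, and by 0.21 from untreated to Dox+Auxin (SE 0.050, adjusted p = 0.00129).

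In SPOC cells Tbl1xr1 was at 95.9, 96.0, 91.0, 99.5 and 92.8 CPM untreated, 109.5, 102, 104, 98.9 and 94.5 with Dox, and 84.5, 86.7, 87.5, 95.6 and 86.8 with Dox+Auxin. Neighbouring groups overlapped: 1 Dox+Auxin library, replicate 4, reached the Dox range. The fall from Dox to Dox+Auxin was 0.21 (SE 0.045, adjusted p = 0.000651). Dox differed from untreated by 0.098 (SE 0.045, adjusted p = 0.160) and Dox+Auxin from untreated by -0.11 (SE 0.045, adjusted p = 0.0642). Without untreated replicate 2 they were 0.10 (adjusted p = 0.165) and -0.100 (adjusted p = 0.120). The second of these passed the threshold without Dox+Auxin replicate 4 (-0.14, adjusted p = 0.0206).

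The deacetylase Hdac3 (ENSMUSG00000024454; chromosome 18, 37935844 to 37955016, minus strand) fell with doxycycline in GFP cells and was higher again with Dox+Auxin. It was at 66.3, 64.8, 68.5 and 66.5 CPM untreated, 57.2, 61.0, 58.1 and 57.5 with Dox, and 66.9, 66.4, 69.1 and 64.9 with Dox+Auxin. Every Dox library was below every library of the other 2 GFP groups. The fall with Dox was 0.19 (SE 0.035, adjusted p = 0.000182), or 12.1%, and the rise from Dox to Dox+Auxin was 0.19 (SE 0.035, adjusted p = 3.51e-05). Dox+Auxin and untreated differed by 0.0069 (adjusted p = 0.899), with a 95% interval of -0.064 to 0.078.

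No call was made of Hdac3 in SPOC cells. It was at 66.4, 60.6, 63.3, 63.9 and 63.1 CPM untreated, 58.0, 58.9, 61.9, 58.7 and 60.6 with Dox, and 60.2, 62.4, 61.3, 60.5 and 65.7 with Dox+Auxin. The groups overlapped in all pairs. Dox differed from untreated by -0.090 (SE 0.032, adjusted p = 0.0553), and by -0.10 without SPOC untreated replicate 2 (adjusted p = 0.0261), which was then a call. Dox+Auxin differed from Dox by 0.057 (SE 0.032, adjusted p = 0.174).

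Gps2 (ENSMUSG00000023170; chromosome 11, 69913888 to 69916591, plus strand), the shortest and least counted member, rose with Dox+Auxin in GFP cells. It was at 21.5, 18.7, 18.8 and 19.4 CPM untreated, 18.8, 18.3, 20.6 and 19.9 with Dox, and 24.0, 20.8, 23.6 and 20.4 with Dox+Auxin. The groups overlapped, with Dox+Auxin replicates 1 and 3 above all other GFP libraries. Gps2 rose by 0.20 from Dox to Dox+Auxin (SE 0.060, adjusted p = 0.00688) and by 0.18 from untreated to Dox+Auxin (SE 0.059, adjusted p = 0.0150); the second call was lost without Dox+Auxin replicate 1 (0.14, adjusted p = 0.0804) or 3 (0.15, adjusted p = 0.0607). With Dox alone it differed from untreated by -0.016 (adjusted p = 0.894).

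In SPOC cells Gps2 was at 20.1, 20.5, 20.7, 20.8 and 22.8 CPM untreated, 20.3, 22.1, 22.0, 20.3 and 21.9 with Dox, and 21.4, 22.7, 23.1, 20.6 and 22.4 with Dox+Auxin. All groups overlapped and none of the differences passed the threshold. The differences were 0.027 for Dox and 0.074 for Dox+Auxin against untreated, and 0.047 for Dox+Auxin against Dox, with 95% intervals reaching no further than -0.084 and 0.18. Without untreated replicate 2 the first pair were 0.021 and 0.070 (adjusted p = 0.876 and 0.385).

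**Figure D2:**
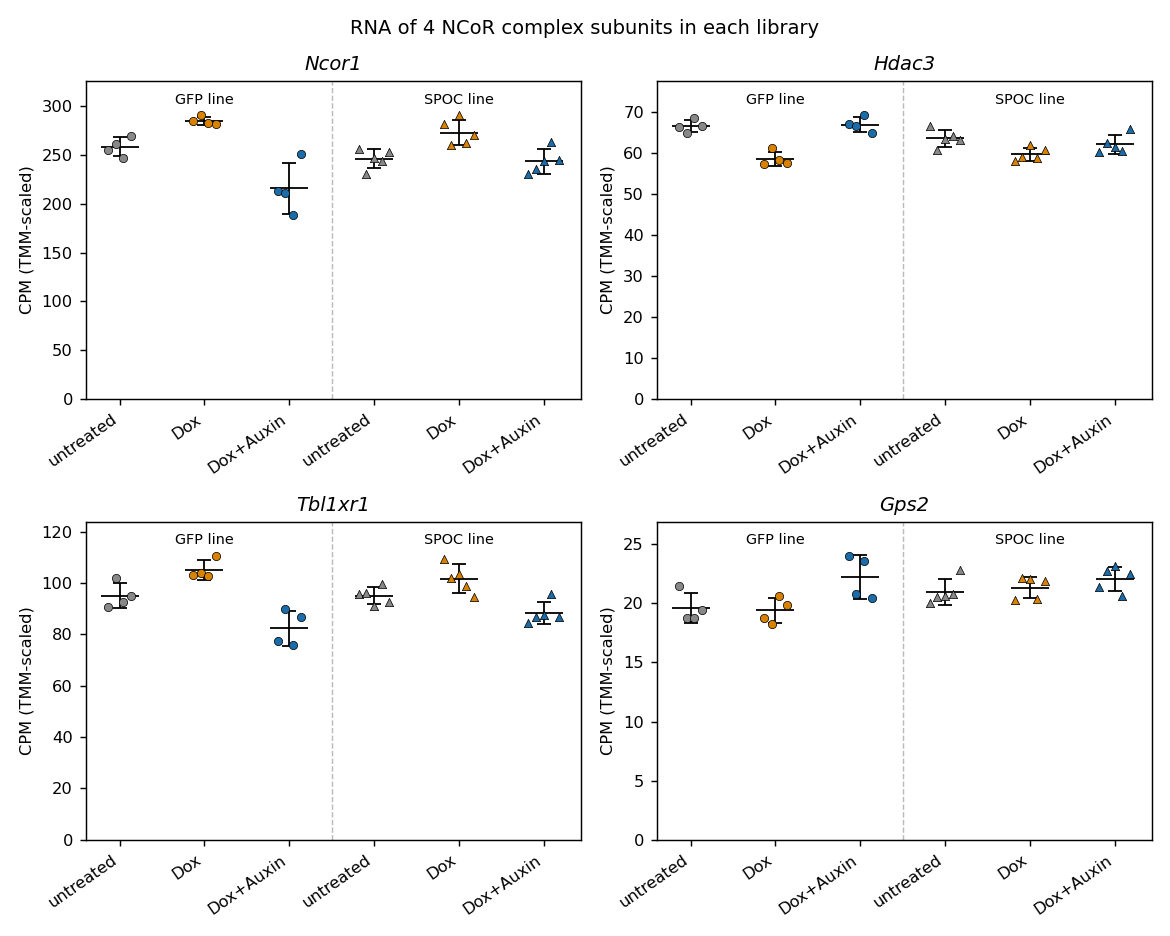
Level of each member in each of the 27 libraries (CPM on the vertical axis, from 0; points, libraries; black bars, mean and SD; circles, GFP line; triangles, SPOC line; replicates in order within a group). Ncor1 and Tbl1xr1 are highest in the Dox groups and lowest in GFP Dox+Auxin, and Hdac3 in GFP Dox (57.2 to 61.0 CPM) lies below the other GFP groups.

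Counted over the 4 members, Dox against untreated in GFP cells gave 1 rise (Tbl1xr1) and 1 fall (Hdac3), where 20.9% of tested genes were called; libraries of 3 members did not overlap, as for 27% of tested genes. Dox+Auxin against untreated gave 1 rise and 2 falls, with 38.2% of genes called; libraries of 1 member, Tbl1xr1, did not overlap, as for 35.8% of genes. Dox+Auxin against Dox gave 2 rises and 2 falls, with 47.6% of genes called, and libraries of 3 members did not overlap, as for 42.2% of genes. In SPOC cells the counts were 1 rise and no fall for Dox against untreated (13.5% of genes called; libraries did not overlap for Ncor1 and for 9.6% of genes), no call for Dox+Auxin against untreated (33.3%), and 2 falls for Dox+Auxin against Dox (32%). The comparisons within a line share samples. For 28.5% of tested genes the change from Dox to Dox+Auxin in GFP cells was larger in size than that of Ncor1; the shares were 32.4% for Tbl1xr1, 51.5% for Gps2 and 52.6% for Hdac3. The median of the 4 members in that comparison was -0.079, against 0.0038 over all genes tested.

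**Figure D3:**
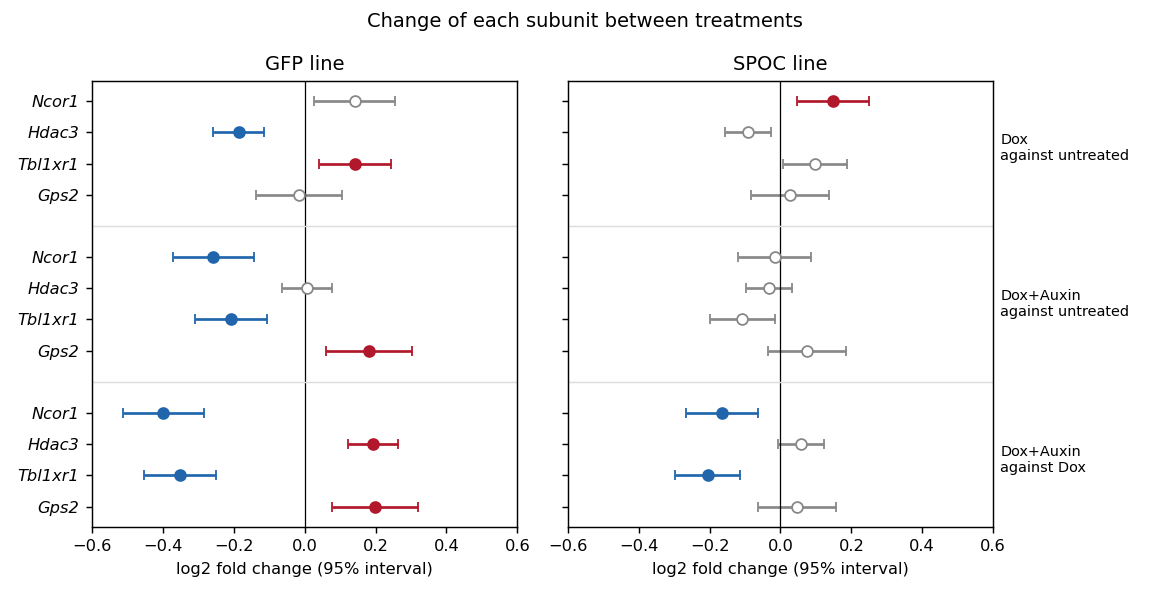
Log2 fold change of each member in the 6 comparisons within lines (horizontal axis; points, edgeR estimate; bars, 95% interval; filled red, higher; filled blue, lower; open grey, not past an adjusted p of 0.05). In Dox+Auxin against Dox the GFP line runs from -0.40 for Ncor1 to 0.20 for Gps2, and the SPOC line from -0.21 for Tbl1xr1 to 0.057 for Hdac3.

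Compared directly, no member was called between the lines when untreated or with Dox, where 11.6% and 10.7% of tested genes were called; edgeR gave 1 member with an unadjusted p below 0.05 in each, Hdac3 untreated (0.0481) and Gps2 with Dox (0.0210). With Dox+Auxin, where 24.6% of genes were called, Ncor1 was higher in SPOC cells than in GFP cells, by 0.17 (SE 0.053, adjusted p = 0.0169), and Hdac3 was lower, by -0.11 (SE 0.033, adjusted p = 0.0165). Both of these calls were lost without GFP Dox+Auxin replicate 3 (Ncor1 0.11, adjusted p = 0.0988; Hdac3 -0.091, adjusted p = 0.0619), and that of Ncor1 also without GFP Dox+Auxin replicate 2 or SPOC Dox+Auxin replicate 4. For Tbl1xr1 and Gps2 the differences were 0.099 (adjusted p = 0.130) and -0.012 (adjusted p = 0.912). Without SPOC untreated replicate 2 the untreated lines differed by -0.048 for Ncor1, -0.054 for Hdac3, -0.0072 for Tbl1xr1 and 0.10 for Gps2, with no call.

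The test of whether a treatment acted differently in the 2 lines called 1 member in 1 comparison. The fall of Ncor1 from Dox to Dox+Auxin was smaller in SPOC cells, by 0.23 (log2; SE 0.075, adjusted p = 0.0497), where 8.14% of genes were called. This value sits at the threshold: it was no longer called in 25 of 33 alternatives, among them the fit of the groups compared alone (0.24, adjusted p = 0.0878), and was 0.17 (adjusted p = 0.114) without GFP Dox+Auxin replicate 3 and 0.31 (adjusted p = 0.000972) without replicate 4. For Hdac3 the line difference was -0.14 (adjusted p = 0.0735), for Tbl1xr1 0.15 (adjusted p = 0.190) and for Gps2 -0.15 (adjusted p = 0.272). Line differences of Dox against untreated (0.24% of genes called) and of Dox+Auxin against untreated (2.4%) gave no call among the members; the largest in size was 0.24 for Ncor1 in the second (adjusted p = 0.0803), which was called without GFP Dox+Auxin replicate 4 (0.32, adjusted p = 0.00224) and was 0.22 (adjusted p = 0.112) without SPOC untreated replicate 2.

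Tbl1x, the paralogue of Tbl1xr1 that lies on the X chromosome, changed more with Dox in both lines, and from Dox to Dox+Auxin in GFP cells, than any member. It stood at 326, 340, 322 and 335 CPM in GFP untreated libraries, 201, 205, 198 and 204 with Dox, and 358, 355, 312 and 371 with Dox+Auxin. It fell by 0.71 with Dox (SE 0.061, adjusted p = 9.78e-10) and rose by 0.79 from Dox to Dox+Auxin (SE 0.061, adjusted p = 3.62e-11). From untreated to Dox+Auxin it differed by 0.079 (adjusted p = 0.320), less than Ncor1, Tbl1xr1 and Gps2. In SPOC cells it was at 327, 244, 291, 316 and 319 CPM untreated, with the low value in the library labelled replicate 2, at 208, 215, 199.7, 212 and 212 with Dox, and at 249.9, 249.6, 233, 252 and 231 with Dox+Auxin. It fell there by 0.52 with Dox (adjusted p = 1.21e-07; 0.58 without untreated replicate 2, adjusted p = 1.92e-12) and rose by only 0.22 from Dox to Dox+Auxin (adjusted p = 0.00303), so that Dox+Auxin differed from untreated by -0.30 (adjusted p = 9.23e-05; -0.36 without untreated replicate 2, adjusted p = 3.15e-08). The difference between the lines in Dox+Auxin against Dox was -0.57 (SE 0.081, adjusted p = 8.17e-05).

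The proportion of Tbl1xr1 and Tbl1x shifted with treatment. Tbl1xr1 made up 18.6 ± 0.483% of the summed level of both genes per kilobase in GFP untreated cells (SD, n = 4), 29.2 ± 0.587% under Dox and 15.8 ± 0.890% under Dox+Auxin. In SPOC cells the shares were 20.2 ± 2.07% (SD, n = 5), 27.8 ± 1.44% and 22.3 ± 0.909%, and the first was 19.3 ± 0.647% (SD, n = 4) without untreated replicate 2. The GFP groups did not overlap, and in SPOC cells the library labelled untreated replicate 2, at 23.8%, lay above all Dox+Auxin libraries. The summed level of both genes fell from 57.5 ± 1.65 to 40.4 ± 0.814 CPM per kb with Dox in GFP cells and was 58.8 ± 4.16 with Dox+Auxin; in SPOC cells it was 53.1 ± 4.86, 41.1 ± 0.811 and 44.4 ± 1.65.

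**Figure D4:**
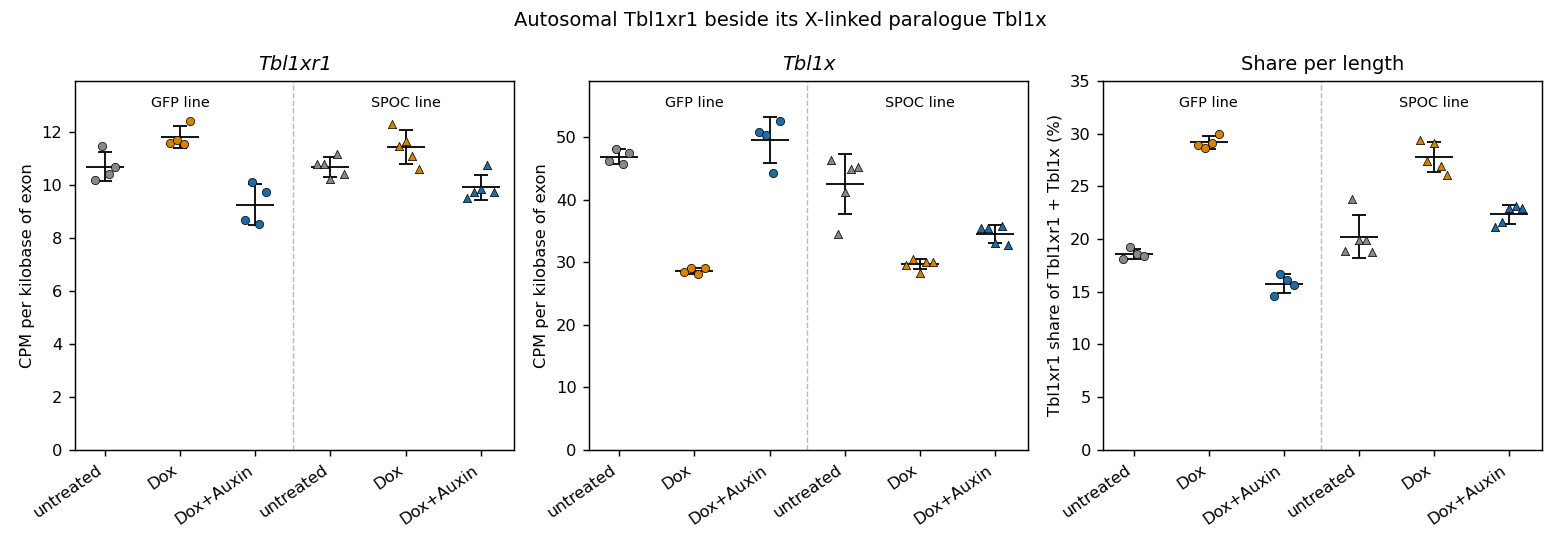
Levels of Tbl1xr1 and Tbl1x per kilobase of exon (left and middle, CPM per kb) and the share of Tbl1xr1 in their sum (right, percent) in each library, with mean and SD in black. Tbl1x is near 29 CPM per kb in both Dox groups, and the Tbl1xr1 share is then 26.1% to 30.0%.

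Beside the 4 members, the lists of corepressor and related genes together hold 76 autosomal and 5 X-linked genes (Tbl1x, Zbtb33, Siah1b, Hdac8 and Rbbp7). They are not all corepressors: recruiting factors, TRiC chaperonin genes, nuclear receptor coactivators and SPOC domain genes, Spen among them, are included. With Dox against untreated all 5 X-linked genes fell in both lines, with a median of -0.47 in GFP cells and -0.49 in SPOC cells. Of the 76 autosomal genes 15 rose and 5 fell in GFP cells, and 9 rose and 6 fell in SPOC cells. Over all tested genes 20.9% and 13.5% were called in these GFP and SPOC comparisons. Without SPOC untreated replicate 2, the median of the 5 X-linked genes in SPOC cells was -0.54 and all 5 were called lower. In that fit 10 autosomal genes rose and 5 fell (14.7% of all tested genes called). From Dox to Dox+Auxin, 12 autosomal genes rose and 34 fell in GFP cells, and 11 rose and 23 fell in SPOC cells; 47.6% and 32% of all tested genes were called in the GFP and SPOC comparisons. The autosomal medians were -0.083 and -0.043, against 0.0038 and -0.0080 over all tested genes. Of the 5 X-linked genes, 4 rose in GFP cells (median 0.79) and 4 rose and 1 fell in SPOC cells (median 0.25). The exception was Hdac8, not called in GFP cells and changed by -0.21 in SPOC cells (edgeR adjusted p = 0.0112). With Dox+Auxin in GFP cells Hdac8 still differed from untreated, by -0.54 (edgeR adjusted p = 2.56e-07). Of the members, which are not in these counts, Ncor1 and Tbl1xr1 fell in both lines, and Hdac3 and Gps2 rose in GFP cells.

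Of 16 factors known to recruit the complex, 4 rose and 5 fell from Dox to Dox+Auxin in GFP cells, a share near the 47.6% of all genes called. Rarg, a retinoic acid receptor, fell by 1.13 (adjusted p = 2.34e-07) after a rise of 0.64 with Dox (adjusted p = 0.000767), and in SPOC cells by 0.47 after a rise of 0.47 (adjusted p = 0.00402 and 0.0105; the rise was 0.59 without SPOC untreated replicate 2, adjusted p = 0.000659). In GFP cells Zbtb16, a zinc-finger repressor, fell by 1.28 (adjusted p = 0.00222), and X-linked Zbtb33 (Kaiso) rose by 0.96 (adjusted p = 6.69e-13). Both changes differed between the lines (SPOC minus GFP), by 1.55 for Zbtb16 and -0.49 for Zbtb33 (edgeR adjusted p = 0.0241 and 0.000643). Rbpj, the Notch pathway factor that binds SPEN directly, was singled out after its values were seen; it fell by 0.37 in GFP cells and by 0.22 in SPOC cells (adjusted p = 4.03e-08 and 4.51e-05). In SPOC cells 4 factors rose and 5 fell, where 32% of all tested genes were called.

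Among 9 genes known to modify the complex or to make the inositol phosphates that bridge HDAC3 to its scaffold, 2 rose and 3 fell from Dox to Dox+Auxin in GFP cells, again near 47.6%. Itpk1 and Ipmk, inositol phosphate kinases, fell by 0.47 (adjusted p = 1.55e-05) and by 0.14 (adjusted p = 0.000624). Siah1b, an X-linked ubiquitin ligase of the family that degrades NCoR, rose by 0.58 (adjusted p = 3.36e-12). In SPOC cells 1 of these 9 genes rose and 3 fell (32% of all genes called), with Itpk1 lower by -0.30 (adjusted p = 0.00137).

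The TRiC chaperonin folds HDAC3 before it meets its scaffold. Of its 8 subunit genes, 5 rose with Dox in GFP cells and none fell (20.9% of all genes called), 6 fell from Dox to Dox+Auxin and none rose (47.6%), and from untreated to Dox+Auxin 2 rose and 1 fell (38.2%). Tcp1 rose by 0.10 (adjusted p = 0.00685) and then fell by 0.18 (adjusted p = 2.79e-06), and Cct6a fell by 0.14 in the second comparison (adjusted p = 5.51e-05). In SPOC cells none was called with Dox by edgeR (13.5% of all genes called). From Dox to Dox+Auxin 3 fell there (32%), among them Tcp1 by 0.12 (adjusted p = 0.000616). Of the class IIa deacetylases, which bind the complex and have little catalytic activity of their own, Hdac5 was the 1 of 4 called from Dox to Dox+Auxin in GFP cells (47.6% of all genes called), higher by 0.19 (adjusted p = 0.00263). It was higher by 0.25 in SPOC cells (adjusted p = 0.000115), where Hdac9 and Hdac4 fell (32% of all genes called).

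Genes of other deacetylase complexes and of the coactivators were called at shares on both sides of the 47.6% of all genes called from Dox to Dox+Auxin in GFP cells. Of 5 genes of the shared class I deacetylase core, 1 rose and 3 fell: Hdac2 fell by 0.33 (adjusted p = 8.35e-08), Rbbp4, a histone chaperone, fell by 0.20 (adjusted p = 1.90e-06), and its X-linked paralogue Rbbp7 rose by 0.84 (adjusted p = 1.82e-16). Of 8 SIN3 complex genes none rose and 4 fell, with Ing1 lower by -0.22 (adjusted p = 2.81e-06). Of 9 NuRD genes 2 rose and 6 fell, with Chd3, a chromatin remodeller, higher by 0.65 (adjusted p = 0.000250) and Gatad2b lower by -0.34 (adjusted p = 6.22e-08). Of 7 CoREST genes 1 rose and 3 fell, and of 9 nuclear receptor coactivators 1 rose and 2 fell, with Ncoa3 lower by -0.39 (adjusted p = 9.04e-08). In SPOC cells, where 32% of all genes were called, the same lists gave 1 rise and 3 falls for the class I core, no rise and 1 fall for SIN3, 2 and 4 for NuRD, 1 and 2 for CoREST, and 1 and 1 for the coactivators. Among the 5 genes for proteins with a SPOC domain, 3 rose and 2 fell in GFP cells and 3 rose and none fell in SPOC cells (47.6% and 32% of all genes called), with Rbm15 higher by 0.21 (adjusted p = 0.000155) and Dido1 lower by -0.25 (adjusted p = 3.85e-05) in GFP cells, beside Spen itself. Dido1 differed by -0.015 in SPOC cells (adjusted p = 0.822), a line difference of 0.23 (adjusted p = 0.0158).

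The members did not vary as 1 unit across the 27 libraries. Pearson's r of log2 CPM was 0.85 between Ncor1 and Tbl1xr1, -0.60 between Ncor1 and Hdac3, -0.55 between Ncor1 and Gps2, -0.65 between Hdac3 and Tbl1xr1, -0.63 between Tbl1xr1 and Gps2, and 0.19 between Hdac3 and Gps2. With group means removed these were 0.50, -0.075, -0.34, -0.35, -0.57 and 0.20 in the same order. The values describe these libraries, which share treatments and depth scaling within groups. Among the 9122 genes whose mean level reached 10 CPM, those most like Ncor1 were Tfcp2l1 (r = 0.96), a naive pluripotency factor, Ncoa3 (0.95), a nuclear receptor coactivator, and Nup160 (0.94), a nuclear pore protein. Those most like Hdac3 were Yaf2 (0.91), Rabl6 (0.90) and X-linked Pnck (0.88), those most like Tbl1xr1 were Ttc39b (0.90), Pde4d (0.89) and Fry (0.89), and those most like Gps2 were Msantd4, Aup1 and Trappc12 (0.78, 0.78 and 0.77). Tfcp2l1, like Ncor1, fell from Dox to Dox+Auxin, by 0.42 in GFP cells and by 0.26 in SPOC cells (adjusted p = 7.16e-07 and 0.000313).

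Both parental copies of each member were expressed. The values of the allelic count columns disagreed with the total counts of the same library name. Per library name, 1303 to 5292 genes had more allelic than total counts. Allelic reads were therefore summed over all columns and no group was compared. Whether either set of columns is misnamed was not tested. BL6 reads made up 55.4% of 57352 allelic reads for Ncor1 (95% Wilson interval 55.0% to 55.8%), 54.3% of 26163 for Hdac3 (53.7% to 54.9%), 47.4% of 28480 for Tbl1xr1 (46.9% to 48.0%) and 58.4% of 2138 for Gps2 (56.3% to 60.5%); the intervals cover counting error only. Over 11148 autosomal genes with at least 1000 allelic reads the median was 50.3%, with 5th and 95th percentiles of 27.7% and 72.0%, and all 4 members lay between these percentiles.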

How the data were processed

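The authors deposited 1 table with raw read counts per gene, RPKM values, and counts for the BL6 and CAST alleles, per the file headers; per the submitters' processing notes the build was mm10 and the tools included STAR 2.5.3a, featureCounts, Trim Galore 0.4.4, DESeq2 1.18.1 and Picard 2.18.2, whose roles they do not state. For the counting, neither annotation nor strand setting is given in the sources used here. The deposited RPKM, which are on the scale of counts per kilobase, were used only for the order of levels. Symbols came from GENCODE M21, which held 53706 of 53801 IDs. Counts were filtered (filterByExpr, 18363 genes), scaled by TMM and fitted with edgeR 4.0.16 in R 4.3.3 (robust quasi-likelihood, 1 term per group, 21 residual degrees of freedom) for 12 comparisons; a gene was called higher or lower at a Benjamini-Hochberg adjusted p below 0.05, adjusted over all genes tested. Library sizes were 28936459 to 45489094 counts. The steps were tested on simulated counts.

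Members and gene lists were chosen with earlier results of these data known. Some genes of the lists are not reported here and were left out of list counts, though not of the fit. Named were the members, Tbl1x, Xist and Spen, up to 3 called genes of largest change per list and comparison discussed, and the 3 genes most correlated with each member (log2 CPM, prior count 2), with no Gm or Rik names, pseudogenes or IDs lacking a name. The design text speaks of 4 biological replicates, though the SPOC line has 5 libraries per group, and no label says that libraries came from separate cultures, so p-values may measure technical spread. No 2 replicates agreed within sampling noise (lowest chi-square per gene 1.76). That lowest value was between SPOC Dox+Auxin replicates 1 and 2, and other pairs of this group lay between 6.63 and 13.2. Whether replicates 1 and 2 of this group are independent was not tested. Alternatives were DESeq2 1.42.0, its size factors, other filters on low counts, fits of the compared groups alone, a replicate block, and leaving out each library.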

Additional observations from a re-analysis of the deposited data

Results flagged for a closer look

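In the SPOC line with Dox+Auxin, replicate 4 held 95.6 CPM of Tbl1xr1 while the other 4 libraries lay between 84.5 and 87.5 CPM. In SPOC untreated cells, replicate 5 held 22.8 CPM of Gps2 while the other 4 libraries lay between 20.1 and 20.8 CPM. These were the libraries standing apart among 24 sets of libraries examined, 4 members in 6 groups, and chance alone flags about 1 set in 20. The change of Ncor1 from Dox to Dox+Auxin differed between the lines by 0.23 (log2, SPOC line minus GFP line; SE 0.075, edgeR adjusted p = 0.0497), with 4 GFP and 5 SPOC libraries in each group.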

How the results depend on the processing

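Of 1584 values of the members under alternatives, 1500 stayed on the same side of the threshold, 61 were no longer called, 23 were newly called, and no called value changed sign. Of the 1500, 19 that were not called had another sign than the reported value. Without a filter on low counts, calls were lost for Ncor1 with Dox in SPOC cells (0.15), Ncor1 with Dox+Auxin against Dox in SPOC cells (-0.16), Ncor1 and Hdac3 between lines with Dox+Auxin (0.17 and -0.11), and the Ncor1 line difference of Dox+Auxin against Dox (0.25). DESeq2 size factors also ended the last (0.24). A filter at a mean of 1 CPM made calls of Hdac3 with Dox in SPOC cells (-0.089) and its line difference of Dox+Auxin against Dox (-0.14). Fitting only the groups compared made a call of Ncor1 with Dox in GFP cells (0.15) and lost Ncor1 and Hdac3 between lines with Dox+Auxin (0.18 and -0.11) and the Ncor1 line difference of Dox+Auxin against Dox (0.24). The DESeq2 test made a call of the Ncor1 line difference of Dox+Auxin against untreated (0.25). The cause was not tested for any of these.

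Genes called for line differences numbered 44 for Dox against untreated (89 with DESeq2) and 441 for Dox+Auxin against untreated (811 with DESeq2, 211 with only the groups compared).

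Same-numbered libraries deviated together (r over 0.1) in 6 of 12 pairs within GFP cells, 10 of 15 within SPOC cells and 8 of 36 between lines, against 0 of 36, 3 of 60 and 15 of 144 pairs with different numbers. Same-numbered libraries within a line thus deviated together more often, but not every pair did, and no label says what a number marks, so the samples were not treated as paired. A replicate block raised the genes called for Dox in SPOC cells from 2478 to 4145, and for line differences from 44 to 294 (Dox against untreated), 441 to 2006 (Dox+Auxin against untreated) and 1495 to 3317 (Dox+Auxin against Dox). With the block, calls were made of Ncor1 with Dox in GFP cells (0.14), Hdac3 and Tbl1xr1 with Dox in SPOC cells (-0.090 and 0.098), Tbl1xr1 with Dox+Auxin against untreated in SPOC cells (-0.11), Ncor1 in the line difference of Dox+Auxin against untreated (0.25), Hdac3 in that of Dox+Auxin against Dox (-0.14), and Tbl1xr1 between lines with Dox+Auxin (0.11).

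Leaving out 1 library at a time changed a call for the following. With Dox in GFP cells, Ncor1 ranged from 0.12 to 0.16 and Tbl1xr1 from 0.12 to 0.18. With Dox in SPOC cells, Ncor1 ranged from 0.13 to 0.17 and Hdac3 from -0.10 to -0.069. With Dox+Auxin against untreated, Gps2 ranged from 0.14 to 0.23 in GFP cells and Tbl1xr1 from -0.14 to -0.091 in SPOC cells. Between lines with Dox+Auxin, Ncor1 ranged from 0.11 to 0.25, Hdac3 from -0.13 to -0.091 and Tbl1xr1 from 0.062 to 0.14. In line differences of Dox+Auxin against Dox, Ncor1 ranged from 0.17 to 0.31 and Hdac3 from -0.16 to -0.12, and in that against untreated Ncor1 ranged from 0.18 to 0.32. Genes called between lines ranged from 1035 (without GFP untreated replicate 2) to 2299 untreated and from 1260 (without GFP Dox replicate 2) to 2087 with Dox. Those called for the line difference of Dox+Auxin against untreated ranged from 207 (without GFP untreated replicate 4) to 865 (without GFP Dox+Auxin replicate 4).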
